A study of Arabidopsis thaliana with 9 samples.

Results

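The comparison concerned rosettes of an Arabidopsis thaliana line named for overexpression of TINY (TINYOE) and of wild type (WT). Its members are the 3 TINYOE and 3 WT libraries among the 9 libraries of the series, and the 16434 genes of 32833 in the count table that passed a filter on low counts. Per the labels, the TINYOE plants carry TINY under the BES1 promoter (BES1P::TINYOE), and the mutant line of the series, tiny124 (tiny1tiny2tiny4, 3 libraries), is set beside single results below. Whole rosettes of 4-week-old plants were taken in every group, from days of 16 h light and 8 h dark. The labels do not say how many independent transgenic lines, plants or pools the libraries stand for, so the p-values rest on the spread among libraries and that spread may be technical. Expression was read as 3' mRNA tags, in which each polyadenylated transcript gives a fragment near its 3' end, so that counts do not depend on transcript length.

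TINY belongs to the DREB branch of the AP2/ERF transcription factors, a plant family whose members bind short promoter elements in genes of dehydration, cold, ethylene and wound responses. Overexpression of DREB factors is known to reduce growth in Arabidopsis. BES1, whose promoter drives the transgene per its name, is a transcription factor that acts downstream of brassinosteroids, steroid hormones that promote cell elongation. The series title names brassinosteroid-regulated growth and drought as its subject, and the present comparison shows what differs in the rosette transcriptome of the line.

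The targeted gene was read first. TINY (tny, AT5G25810) had 33, 35 and 27 counts in the TINYOE libraries, against 20, 18 and 25 in the WT libraries. All TINYOE libraries were above all WT libraries, as they were in 16.2% of all tested genes. The log2 fold change of 0.40 ± 0.27 (SE) did not pass the test (edgeR adjusted p = 0.343). The labels do not give the 3' end of the transgene, and with another 3' end it would give no tags at this locus. Whether these counts could check the label is thus not known, and they did not establish overexpression of TINY. The mutant line averaged 0.706 CPM of TINY (CPM, a gene's counts scaled to a common library size), and TINYOE was higher than it by a log2 fold change of 2.88 (adjusted p = 7.58e-05). Of the other DREB-group relatives, AT4G32800, AT2G44940 and AT4G16750 fell, with log2 fold changes of -1.48, -2.52 and -1.44, and the first of them was higher in TINYOE than in tiny124 (1.38). AT2G44940 stood at 1.81, 1.23 and 1.54 CPM in TINYOE, against 8.92, 6.78 and 10.8 CPM in WT. The list of TINY and its relatives thus held 3 lower and 0 higher genes of 6 tested, with a median of -1.20, and 8 of its 14 genes had too few counts. In tiny124, 3 genes of the list were lower than in WT and 0 higher (median -1.24), where 0.755% of all genes were lower. The differences from tiny124 thus do not measure a rise over WT.

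Library totals ranged from 4917868 to 6070778 counts. The libraries of a group were not equally far from the other group. Principal component 1 (43.0% of the variance) placed the TINYOE libraries between 39.17 and 53.16, WT replicates 1 and 3 at -53.91 and -31.48, and WT replicate 2 at 0.53. WT replicate 2 was the WT library nearest to the TINYOE libraries in 820 of the 1339 genes that rose in TINYOE (61.2%) and in 829 of the 1222 genes that fell (67.8%). Its median log2 difference from the other WT libraries was 0.34 over the genes that rose and -0.32 over those that fell. Without it, 2141 genes were higher and 1891 lower. WT replicate 1 departed in the opposite direction, by medians of -0.27 and 0.28 over the same sets, and WT replicate 3 by -0.01 and 0.05. On principal component 2 (16.2% of the variance) WT replicate 1 stood at 40.36, against 9.06 and 4.02 for WT replicates 2 and 3. What sets WT replicates 1 and 2 apart is not given in the labels. Unless a value or a list count without a library is given beside it, every gene named below as changed kept its call and direction when any single library was left out.

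Across all tested genes 2561 differed between TINYOE and WT (15.6%), at a Benjamini-Hochberg adjusted p under 0.05 in edgeR's quasi-likelihood test. Of these, 1339 rose (8.15%) and 1222 fell (7.44%) in TINYOE, and 807 (4.91%) and 540 (3.29%) did so at least 2-fold. At least 4-fold changes were seen in 129 higher and 82 lower genes. The median log2 fold change of all tested genes was 0.00, with quartiles at -0.33 and 0.36. Of the called genes, 1309 higher and 1167 lower ones had TINYOE and WT libraries that did not overlap. Called or not, 2655 tested genes (16.2%) had all TINYOE libraries above all WT libraries, and 2512 (15.3%) had them all below. The balance of the calls moved with expression level. Among genes with a mean of at most 4.72 CPM 217 were higher and 148 lower, while among those above 30.4 CPM 414 were higher and 498 lower. The counts of lists and terms below stand against the shares of all tested genes, of which 8.15% rose and 7.44% fell. Set against tiny124, 5.12% of all tested genes were higher in TINYOE and 4.73% lower. No list was tested against these shares.

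**Figure D1:**
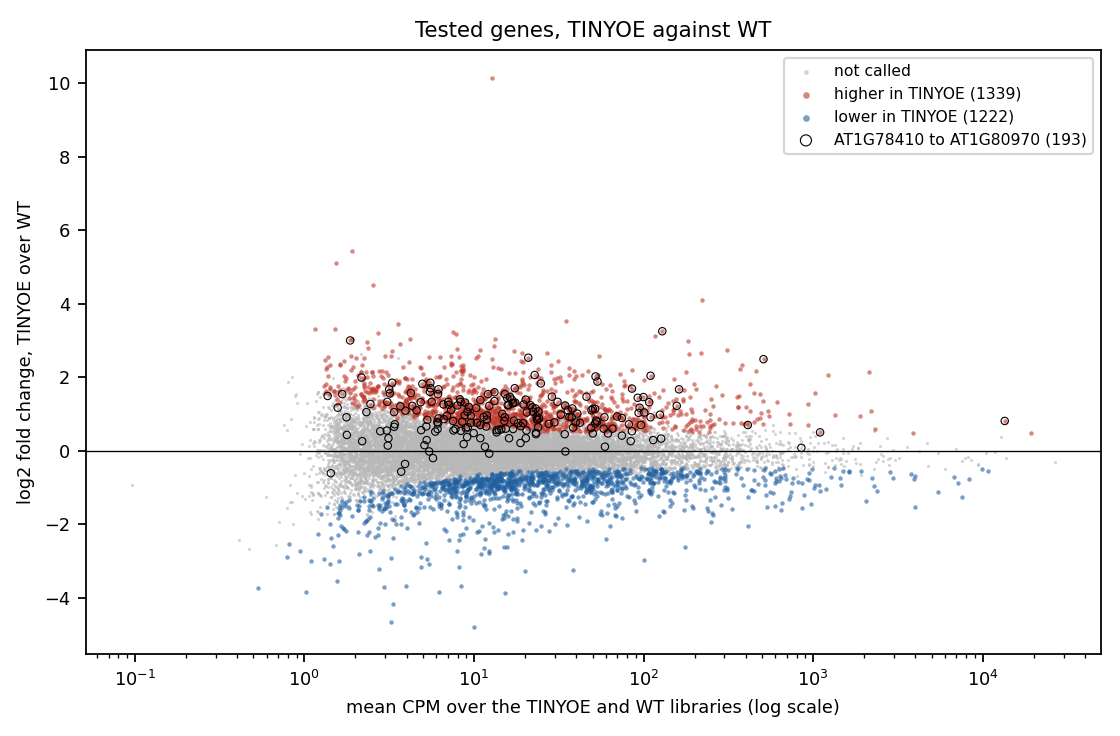
Each point is a tested gene, with its mean CPM over the TINYOE and WT libraries on a log axis and its log2 fold change of TINYOE over WT on the other. Red and blue points are the 1339 higher and 1222 lower genes, open circles mark the 193 tested genes of AT1G78410 to AT1G80970, and the highest point is XTH20, which had 0 counts in WT.

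The genes of largest change with at least 10 CPM came from several functions. XTH20, a xyloglucan-modifying enzyme of the cell wall, had 26.3, 29.1 and 21.2 CPM in TINYOE and 0 counts in every WT library, at least 131-fold higher when WT is set at a floor of 3 counts over its libraries. GRXS13, a glutaredoxin of a plant-specific class, stood at 82.7, 51.9 and 56.7 CPM in TINYOE, against 4.37, 8.47 and 4.03 CPM in WT (11.4-fold). HAT9, a homeobox gene, rose 6.02-fold and EXPB3, an expansin that loosens walls, 6.28-fold. In the other direction, ICME-LIKE2, annotated as a hydrolase, stood at 0.494, 0.876 and 1.03 CPM in TINYOE, against 18, 9.53 and 7.33 CPM in WT (14.3-fold lower). NRT1.5, which loads nitrate into the xylem, fell to 3.13, 3.86 and 2.56 CPM in TINYOE, against 22.6, 15 and 22 CPM in WT. All of these genes were picked among called genes whose TINYOE and WT libraries did not overlap. Their edgeR adjusted p-values lay between 1.77e-06 and 4.75e-05. Measured by the difference in mean CPM, other genes stood out. Among them the dark-responsive gene AT3G15450 rose and the polyubiquitin gene UBQ10, whose near-identical repeats and copies make its count uncertain, fell. UBQ10 stood at 4520, 4700 and 4260 CPM in TINYOE, against 13200, 8690 and 10200 CPM in WT (2.38-fold lower, adjusted p = 0.000256). THI1, an enzyme that makes the thiazole ring of vitamin B1 in chloroplasts, stood at 1950, 2000 and 2140 CPM in TINYOE, against 7520, 4130 and 6060 CPM in WT (2.91-fold lower).

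Genes at the end of chromosome 1 moved together. Between loci AT1G78410 and AT1G80970, 129 of 193 tested genes rose (66.8%) and 0 fell, with a median log2 fold change of 0.92 and quartiles at 0.60 and 1.30. All TINYOE libraries were above all WT libraries in 127 of the 129. Such separation was seen in 1309 of the 1339 genes that rose anywhere, so it does not set the stretch apart. The 100 tested genes just before the stretch had a median of 0.02, and 7 of them rose. No tested gene lay beyond its last locus. At its first edge the glutathione transferase genes GSTU20 and GSTU19 had log2 fold changes of -2.05 and -0.40, while AT1G78410, AT1G78420, RIP4 and AT1G78450 stood at 1.70, 1.39, 0.34 and 2.06. Over windows of 50 neighbouring genes, the median log2 fold change lay between 0.83 and 1.12 in the 6 windows wholly inside the stretch, and between -0.32 and 0.28 in the 638 windows outside it.

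**Figure D2:**
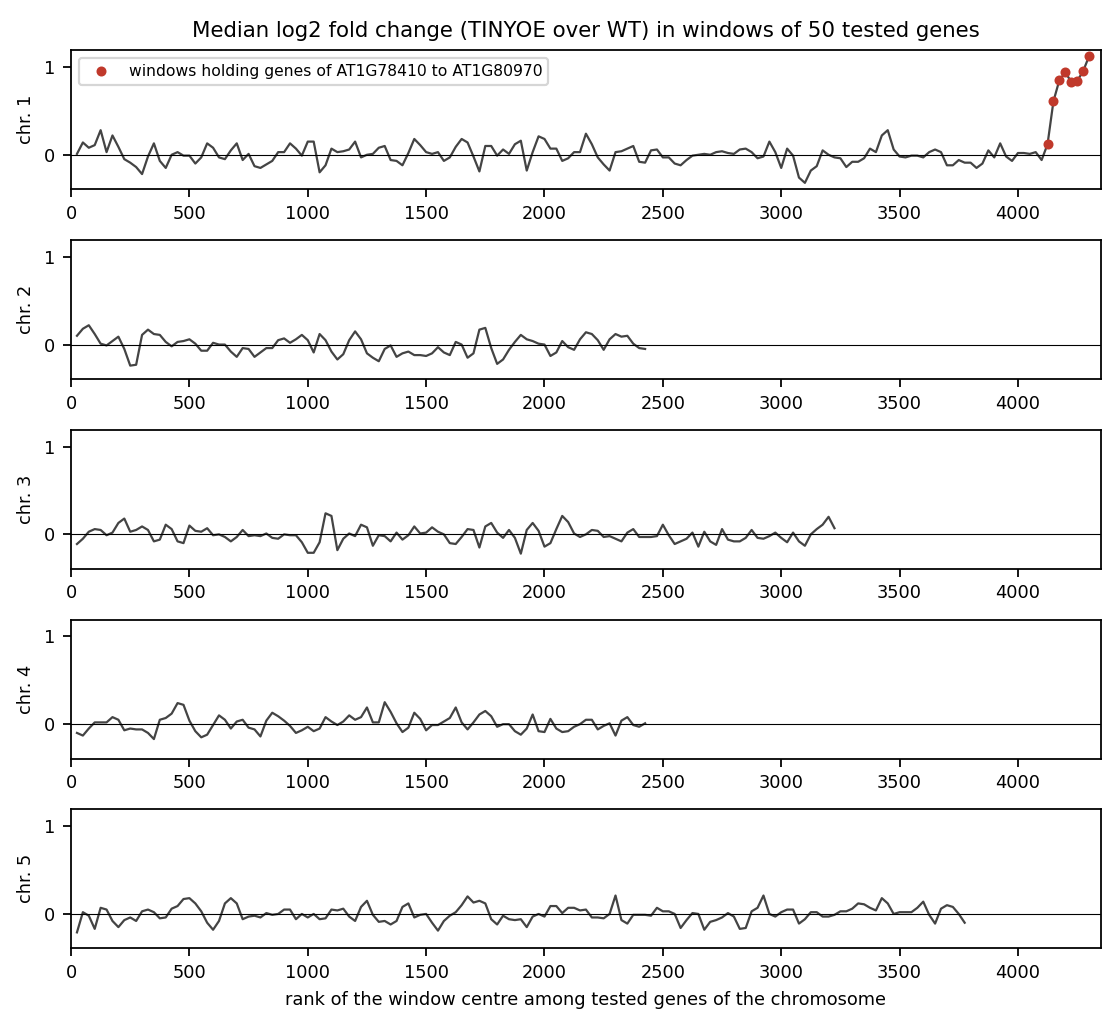
Each line gives the median log2 fold change of TINYOE over WT in windows of 50 tested genes (step of 25) along a chromosome, by gene order. Red points mark windows that hold genes of AT1G78410 to AT1G80970, and the windows wholly inside it have medians of 0.83 to 1.12.

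The stretch held genes of unrelated functions. The 6 with a symbol and the largest log2 fold change were PSF1 (2.53), J8 (2.49), APT2 (2.02), OCT2 (1.99), ATXRCC1 (1.88) and CHX2, the highest at 8.02-fold. APT2, an adenine salvage enzyme, stood at 85.1, 80.3 and 85.3 CPM in TINYOE, against 15.9, 26.5 and 19.4 CPM in WT. J8, a chaperone of the DnaJ class, stood at 769, 873 and 955 CPM in TINYOE, against 96.4, 244 and 122 CPM in WT. The groups were apart in both genes. CHX2 and OCT2 rested on few counts: without WT replicate 2 their log2 fold changes were 4.85 and 3.14, and OCT2 lost its call without WT replicate 1 (adjusted p = 0.0806), WT replicate 3 (0.115), TINYOE replicate 1 (0.0621) or TINYOE replicate 3 (0.113). Leaving the stretch out of the counts gave 1210 higher genes (7.45%) and 1222 lower genes (7.52%) of 16241. On chromosome 1 it left 313 higher and 289 lower genes of 4145. The gene lists described below lost at most 1 higher gene each without it, and each such case is named. When these loci were also removed before normalization, the test called 1208 genes higher and 1170 lower.

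The most one-sided of the higher groups were genes that leaves raise in darkness or when sugar runs short. In this list, which covers branched-chain amino acid breakdown, trehalose phosphate synthase-like regulators and other targets of energy signalling, 18 of 22 tested genes rose and 0 fell (81.8%, where 8.15% of all genes rose), and the median log2 fold change was 1.05. BT2, a scaffold protein that responds to nitrate and sugar, had 401, 436 and 422 CPM in TINYOE, against 16.9, 40.9 and 15.9 CPM in WT (17.2-fold, adjusted p = 1.12e-06). SEN1, a classic dark-induced gene, had 189, 242 and 199 CPM in TINYOE, against 24.3, 31.3 and 17.6 CPM in WT (8.61-fold). AT1G80440, a kelch repeat gene inside the chromosome 1 stretch, had 277, 199 and 223 CPM in TINYOE, against 14, 41.3 and 18.3 CPM in WT, with a log2 fold change of 3.25, and 3.85 without WT replicate 2. WT replicate 2 was the highest WT library in each of these, and still far below the lowest TINYOE library. BT2 and SEN1 had been picked among genes whose groups did not overlap. ASN1, an asparagine synthetase (1.99), the catabolic enzymes MCCA (1.34) and IVD (1.42), the raffinose synthase-like gene DIN10 (1.47), the dormancy gene DYL1 (1.54), AKINBETA1, a subunit of the energy-sensing SnRK1 kinase (0.87), and TPS9 and TPS11 (1.08 and 0.93) also rose, on the log2 fold change scale. Of the tested members outside these calls, all but 1 were above 0.

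The list as a whole took 0.252, 0.271 and 0.232% of counts in the TINYOE libraries, against 0.0666, 0.0788 and 0.0679% in the WT libraries. Without the chromosome 1 stretch 17 of its genes rose, with a median of 1.02. Leaving out single libraries gave between 14 and 17 higher genes. BT1, of the same small family as BT2, rose 6.16-fold, and 2 abundant genes used as dark and dormancy markers rose with them. AT3G15450 had 3150, 4170 and 3210 CPM in TINYOE, against 714, 1030 and 666 CPM in WT (4.37-fold), and AT2G33830 had 1790, 2480 and 1630 CPM in TINYOE, against 404, 621 and 395 CPM in WT (4.16-fold). In the other line, tiny124, 11 list genes were higher than in WT and 0 lower, where 1.75% of all genes were higher and 0.755% lower. Both contrasts use the same WT libraries. Set directly against tiny124, TINYOE was higher in 5 list genes and lower in 1, where 841 genes of all (5.12%) were higher and 777 (4.73%) lower. BT2 and SEN1 were among the higher ones (log2 fold changes of 0.97 and 1.42 over tiny124).

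**Figure D3:**
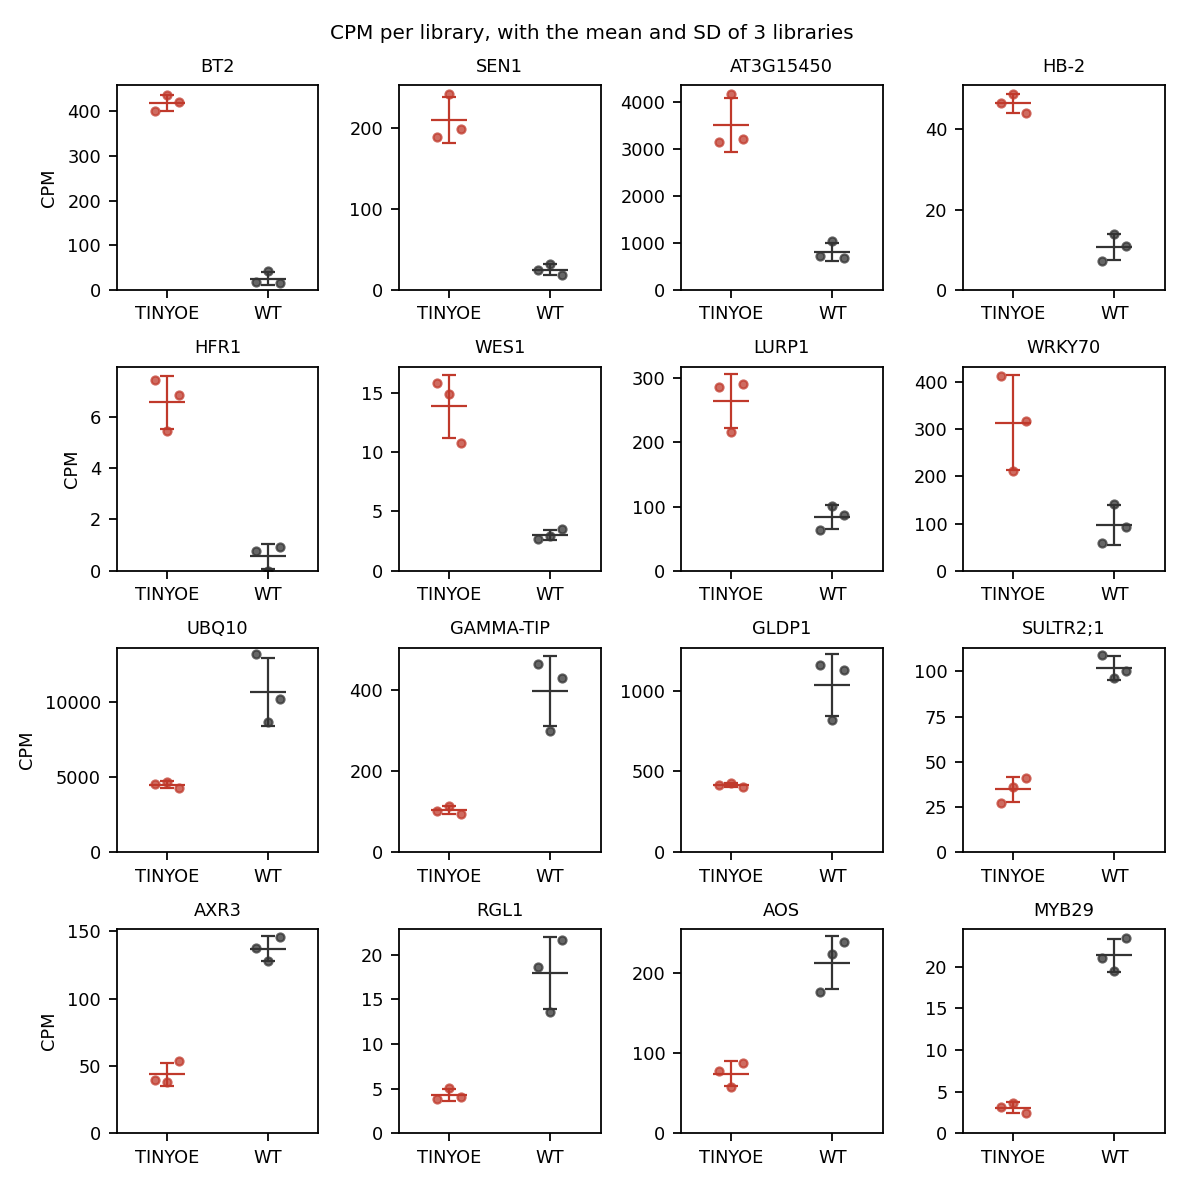
Each panel plots the CPM of 1 gene in the 3 TINYOE and the 3 WT libraries as points, with the mean as a horizontal bar and the SD as the error bar. BT2, SEN1, AT3G15450, HB-2, HFR1, WES1, LURP1 and WRKY70 were higher in TINYOE, and UBQ10, GAMMA-TIP, GLDP1, SULTR2;1, AXR3, RGL1, AOS and MYB29 lower. The groups do not overlap in any panel, but these genes were picked among called ones. Of all called genes, 1309 of 1339 higher and 1167 of 1222 lower ones do not overlap.

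Nutrient genes split by role. Of 19 tested genes of nitrate uptake, reduction and control 6 rose and 3 fell (median 0.25). The ones that rose included LBD37 (2.05-fold), LBD38 (3.16-fold) and LBD39, factors that repress nitrate-responsive genes, while the nitrate transporters NRT1.1 (46.4, 52.2 and 47.5 CPM in TINYOE, against 108, 150 and 131 CPM in WT) and NRT1.5 fell. Among CC-type glutaredoxins, a plant redox family with members induced by nitrate or salicylate, 6 of 11 rose and 0 fell (median 0.63). AT4G15670 rose 2.25-fold and AT3G62950 2.56-fold, beside GRXS13 above. Neighbouring genes of this family are close copies, so reads may be shared among them. In sulfate assimilation 7 of 14 fell and 0 rose (50% lower, where 7.44% of all genes fell, median -0.75). SULTR2;1, a sulfate transporter of vascular tissue, stood at 27.3, 35.8 and 41 CPM in TINYOE, against 109, 96.6 and 100 CPM in WT (2.93-fold lower). APR1 and APR2, which reduce activated sulfate, fell 2.08-fold and 1.79-fold. The sulfur count was 4 without TINYOE replicate 2 or 3. Of this list 8 genes were lower than in tiny124, where 4.73% of all genes were. Phosphate starvation genes showed 1 higher and 2 lower of 15 (median -0.05), with the phosphate sensor SPX1 2.43-fold lower. The higher count was 0 without WT replicate 1 or TINYOE replicate 3, and the lower count was 1 without any one TINYOE library, WT replicate 1 or 3, or tiny124 replicate 1 or 3. Iron genes showed 1 higher and 2 lower of 11 (median 0.17), with NAS4, which makes the metal chelator nicotianamine, 5.43-fold lower. Of these 4 were higher without WT replicate 2 and 0 without WT replicate 3 or TINYOE replicate 1 or 2, and 1 was lower without WT replicate 3 or TINYOE replicate 1.

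Genes of the chloroplast fell more often than they rose, most of all those encoded in the plastid genome. Of 133 plastid loci 82 were tested, of which 55 fell and 0 rose (67.1%, where 7.44% of all genes fell), with a median log2 fold change of -0.98. ATCG00420 stood at 479, 386 and 441 CPM in TINYOE, against 1660, 941 and 1260 CPM in WT, and the groups were apart. ATCG00120 stood at 39.5, 34.7 and 34.7 CPM in TINYOE, against 116, 73.3 and 106 CPM in WT. ATCG00440 stood at 4550, 5100 and 5460 CPM in TINYOE, against 11300, 8210 and 8360 CPM in WT. The libraries of the groups were apart in 52 of the 55, as they were in 1167 of all 1222 genes called lower. Plastid loci together took 3.97, 3.67 and 3.99% of counts in TINYOE, against 5.67, 5.34 and 5.36% in WT. Of these loci 47 were lower than in tiny124, where 4.73% of all genes were. Single libraries left out gave between 40 and 60 lower loci and at most 2 higher. The assay selects polyadenylated RNA, which plastid transcripts mostly are not, and the part of this selection in the result was not tested. In whole rosettes fewer cells of a type and less RNA per cell cannot be told apart. Of the mitochondrial loci, 17 of 152 were tested and 5 fell, with ATMG01390 at 108, 142 and 98.9 CPM in TINYOE, against 582, 174 and 331 CPM in WT. That count was 1 without WT replicate 1, WT replicate 3, TINYOE replicate 2 or TINYOE replicate 3, and 2 without TINYOE replicate 1. The part of the selection for polyadenylated RNA in the mitochondrial counts was not tested either.

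Nuclear genes of photosynthesis changed less. In photorespiration, which recovers carbon lost by the oxygenase reaction of Rubisco, 8 of 15 fell (median -0.47). GLDP1, a subunit of glycine decarboxylase, stood at 414, 426 and 406 CPM in TINYOE, against 1160, 817 and 1130 CPM in WT (2.49-fold lower), its relative GLDP2 fell 1.85-fold and the peroxisomal catalase gene CAT2 1.82-fold. The only member that rose, AT1G80380 (2.06-fold), lies in the chromosome 1 stretch, and 2 rose without WT replicate 2. The count of lower genes was 5 without WT replicate 3, TINYOE replicate 1 or TINYOE replicate 3, and 4 without TINYOE replicate 2. In the Calvin cycle 7 of 17 fell and 0 rose (median -0.38), and 3 without WT replicate 3 or 4 without TINYOE replicate 2 or 3. FBA1, a plastid aldolase, had 447, 469 and 484 CPM in TINYOE, against 1040, 1000 and 1030 CPM in WT. PRK, which regenerates the CO2 acceptor, fell 1.75-fold and RBCS2B, a Rubisco small subunit gene with near-identical copies, 1.86-fold. Of 33 photosystem and antenna genes 7 fell and 1 rose (median -0.21), with 3 lower without TINYOE replicate 2 and 4 without WT replicate 3 or TINYOE replicate 3, and 3 higher without WT replicate 2. PSAH2 and PSAG, subunits of photosystem I, fell 1.96-fold and 1.64-fold. The higher one, PSBR of photosystem II, had 17200, 17500 and 17000 CPM in TINYOE, against 9050, 10700 and 9650 CPM in WT, and lies in the chromosome 1 stretch. GUN5, the large subunit of magnesium chelatase, was the only lower gene of 17 in chlorophyll synthesis (1.52-fold), a list with 0 higher genes, a median of -0.02 and 3 lower genes without WT replicate 2.

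Stored carbon and lipid genes gave smaller counts. In starch metabolism 2 rose and 6 fell of 30 (median -0.23). BAM5, a beta-amylase outside the plastid, stood at 1.48, 0.701 and 1.37 CPM in TINYOE, against 23.4, 7.62 and 15.6 CPM in WT (12.9-fold lower). PHS2, a cytosolic glucan phosphorylase, and SS3, a starch synthase, fell 2.35-fold and 1.98-fold, while BAM4, a regulator of starch breakdown, and QQS, an orphan gene that affects starch content, rose 2.05-fold and 2.19-fold. QQS stood at 245, 320 and 216 CPM in TINYOE, against 116, 111 and 130 CPM in WT. QQS averaged 9.7 CPM in tiny124, and TINYOE was above tiny124 by a log2 fold change of 4.75. Of 16 genes of plastid fatty acid synthesis 3 fell and 0 rose (18.8% lower, where 7.44% of all genes fell, median -0.10). Without WT replicate 2, 5 fell. FATB, a thioesterase that releases saturated fatty acids, fell 2.1-fold.

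**Figure D4:**
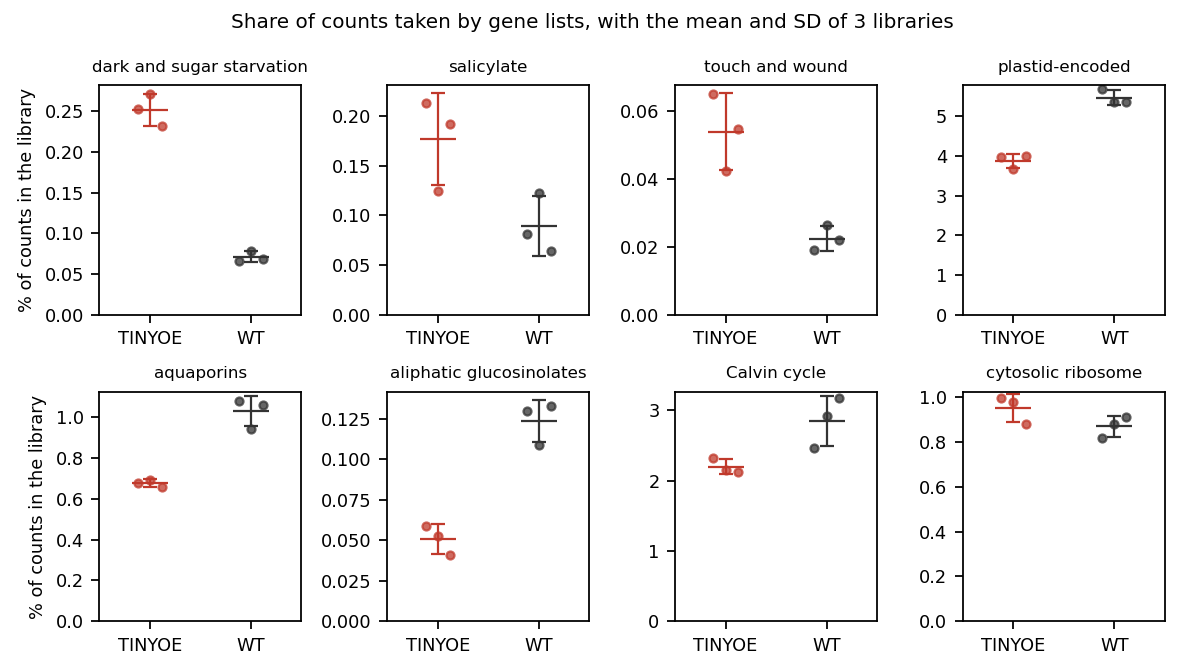
Each panel gives the percent of a library's counts taken by the genes of a list, with the 3 TINYOE and the 3 WT libraries as points, the mean as a horizontal bar and the SD as the error bar. The groups are apart for all panels except that of the cytosolic ribosome, where TINYOE lay between 0.88 and 0.997% and WT between 0.82 and 0.911%.

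Water channels fell. Of 17 tested aquaporin genes 11 fell and 0 rose (64.7%, where 7.44% of all genes fell, median -0.80). Their summed share was 0.678, 0.694 and 0.657% of counts in TINYOE, against 1.08, 0.943 and 1.06% in WT. GAMMA-TIP, a channel of the vacuolar membrane, stood at 100, 114 and 94.8 CPM in TINYOE, against 463, 298 and 429 CPM in WT (3.85-fold lower, adjusted p = 9.63e-06). TIP2;2 of the same membrane fell 2.38-fold and the plasma membrane channel gene PIP1A 2.19-fold. PIP1B, PIP1;5, PIP2B and PIP3 also fell, by 0.80 to 1.08 on the log2 scale. In no TINYOE library did GAMMA-TIP, TIP2;2 or PIP1A reach the lowest WT library. The count was between 8 and 13 with single libraries left out. Of the list 12 genes were lower than in tiny124, where 4.73% of all genes were.

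Drought and abscisic acid genes did not share a direction. Abscisic acid is the hormone that closes stomata and raises protective genes under water deficit. Of 28 tested genes of its metabolism and core signalling 4 rose and 1 fell (median 0.03). The 4 were NCED3, PYL5, SNRK2.2 and ABF3, and 0 were called without TINYOE replicate 2, 1 without WT replicate 1 or TINYOE replicate 3 and 2 without TINYOE replicate 1. ABA1, zeaxanthin epoxidase of the same pathway, fell 2.03-fold. Among 20 dehydration and cold effector genes 1 rose and 3 fell (median -0.15), with 5 lower without WT replicate 1 or 2 and 2 higher without TINYOE replicate 1 or tiny124 replicate 1 or 2. LTI30, a dehydrin, had 102, 96.9 and 75.7 CPM in TINYOE, against 23.9, 20.1 and 42 CPM in WT (3.18-fold). RD20, a caleosin of drought-treated leaves, had 10.5, 8.76 and 9.57 CPM in TINYOE, against 30.9, 43.2 and 46.9 CPM in WT (4.18-fold lower), and GolS1 and RD22 fell 2.82-fold and 1.99-fold. All 4 of these genes also differed from tiny124 in the same direction.

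The cell wall lists held changes in both directions. Of 28 wall-loosening genes 7 rose and 6 fell (median 0.08). TCH4, a touch-induced wall enzyme, had 85.9, 61.7 and 61.9 CPM in TINYOE, against 9.3, 25 and 16.3 CPM in WT, and EXPA8 and XTH8 rose as well, by 1.33 and 1.14 on the log2 fold change scale. XTH7 had 136, 158 and 174 CPM in TINYOE, against 394, 410 and 320 CPM in WT, and XTH6, EXPA5 and XTH24 fell, with log2 fold changes of -1.06, -1.27 and -1.06. Of 14 lignin and phenylpropanoid genes 4 fell and 0 rose (among them PAL1 and CAD5, median -0.48), and every tested member had a log2 fold change below 0. CAD5, the last step to lignin monomers, fell 1.86-fold, and PAL1, the entry enzyme, lost its call without WT replicate 3 (adjusted p = 0.0562). The count was 2 without WT replicate 3, TINYOE replicate 2 or TINYOE replicate 3. Of 9 cellulose synthase genes edgeR and DESeq2 each called 0 (median -0.33), while 4 had an unadjusted p under 0.05, all below 0, with CESA4 nearest to the threshold (edgeR adjusted p = 0.0625). Wax and cutin genes gave 3 lower and 0 higher of 18 (16.7% lower, where 7.44% of all genes fell, median -0.28). Among them LTPG1, a wax export protein, fell 1.68-fold. The count of lower genes was 1 without WT replicate 3 or TINYOE replicate 1.

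Among growth hormones the cytokinin list held lower calls alone, the auxin list mostly higher calls, and the brassinosteroid and gibberellin lists few calls. Of 22 brassinosteroid genes 3 rose and 1 fell (median 0.20). BEH4, a close relative of BES1, rose 2.23-fold and lies in the chromosome 1 stretch. The others, ROT3, BKI1 and DWF1, stood at log2 fold changes of 1.25, 0.67 and -0.73, and 1 gene was called higher without WT replicate 1, WT replicate 3, TINYOE replicate 1 or TINYOE replicate 2, or without tiny124 replicate 1 or 2. DWF1, a step of sterol synthesis, lost its call without WT replicate 1 (adjusted p = 0.0864), WT replicate 3 (0.0808), TINYOE replicate 1 (0.0709), TINYOE replicate 2 (0.0767) or TINYOE replicate 3 (0.0547). In the gibberellin list 1 rose and 2 fell of 14 (median 0.13). RGL1, a DELLA repressor of growth, stood at 3.79, 5.08 and 4.1 CPM in TINYOE, against 18.6, 13.6 and 21.6 CPM in WT (4.15-fold lower). GASA1 fell 2.4-fold and GASA6 rose 1.92-fold, both small peptides regulated by gibberellin. In the cytokinin list 6 of 18 fell and 0 rose (33.3% lower, where 7.44% of all genes fell, median -0.58). ARR6 and RR16, response regulators that cytokinin induces, fell 2.38-fold and 2.51-fold. That count was 10 without WT replicate 2, 2 without WT replicate 1 or TINYOE replicate 2, and 3 without WT replicate 3, TINYOE replicate 1 or TINYOE replicate 3.

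Of 22 auxin response genes 7 rose and 2 fell (median -0.01), with 5 lower without WT replicate 2. WES1, known as GH3.5, which conjugates auxin and salicylate to amino acids, had 15.8, 14.9 and 10.8 CPM in TINYOE, against 2.66, 2.96 and 3.48 CPM in WT (4.52-fold). IAA29, induced by auxin and shade, had 30.3, 31.6 and 26.5 CPM in TINYOE, against 3.23, 14.6 and 7.7 CPM in WT (log2 fold change of 1.80, and 2.43 without WT replicate 2), and IAA2 rose 1.8-fold. AXR3 (IAA17), a repressor of auxin signalling, had 39.7, 38.2 and 53.7 CPM in TINYOE, against 138, 128 and 146 CPM in WT (3.13-fold lower), and IAA8 fell 1.72-fold. The Aux/IAA repressors of the list thus stood on both sides.

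Light signalling showed a similar division, with 7 higher and 6 lower genes of 27 (median 0.11). HB-2 (ATHB2), a homeobox gene raised by shade, had 46.6, 48.9 and 44.1 CPM in TINYOE, against 7.21, 13.8 and 11 CPM in WT (4.37-fold, adjusted p = 1.15e-05). HFR1, a bHLH factor of the shade response, had 7.41, 5.43 and 6.83 CPM in TINYOE, against 0.759, 0 and 0.917 CPM in WT (adjusted p = 0.000209). PIL6 (PIF5), a factor that promotes elongation in darkness and shade, rose 2.12-fold. The photoreceptor gene CRY2 rose too (log2 fold change of 0.86). SPA1, a partner of the COP1 ubiquitin ligase, the B-box gene STH and PIF7 fell 2.26-fold, 2.21-fold and 2.23-fold, and HYH fell by 1.03 on the log2 scale. Of the named ones, HB-2 and HFR1 were also higher than in tiny124 and PIF7 lower. The mutant line itself lay below WT in 6 genes of the list and above it in 1 (median log2 fold change of -0.19).

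The labels do not give the time of day of harvest, so a shift of phase and a change of level cannot be told apart in clock genes. Of 18 tested, 6 fell and 1 rose (median -0.15). LHY, a morning-phased repressor, had 30.8, 39.1 and 28.4 CPM in TINYOE, against 139, 76 and 133 CPM in WT (3.55-fold lower). AT5G64170 fell 2.32-fold and PRR9, which also peaks in the morning, 4.54-fold. The higher gene, PCL1 (LUX), stood at a log2 fold change of 0.77 and kept its call in only 1 of the 9 fits that left out a library, the one without WT replicate 2, where 2 clock genes rose. The count of lower genes was 3 without TINYOE replicate 3. Between TINYOE and tiny124, 0 genes of the list differed, while 3 were lower in tiny124 than in WT and 0 higher. In flowering time and phase change 1 rose and 2 fell of 14 (median 0.11), while 2 rose without WT replicate 1, TINYOE replicate 1 or 3, or tiny124 replicate 2 or 3, and 1 fell without WT replicate 3 or TINYOE replicate 1. TEM1, a repressor of flowering, rose 1.88-fold, and SPL3, a promoter of phase change, fell 2.13-fold.

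Immune genes of the salicylate branch rose. Of 25 tested genes of salicylate and pipecolate synthesis, perception and output 11 rose and 0 fell (44%, where 8.15% of all genes rose, median 1.06). The regulators CBP60G and SARD1 rose by log2 fold changes of 1.96 and 1.79, the lipase-like genes EDS1 and PAD4 by 1.07 and 1.44, the receptor gene NPR3 by 0.84 and its interactors NIMIN1 and NIMIN-2 by 2.72 and 1.89. LURP1, an output gene, had 286, 216 and 290 CPM in TINYOE, against 64, 101 and 87.6 CPM in WT. UGT74F2, which glucosylates salicylate, had 42, 39.4 and 40.5 CPM in TINYOE, against 12, 18.2 and 9.35 CPM in WT. The groups were apart in all 11, as they were in 1309 of all 1339 genes called higher. Yet within TINYOE the second replicate was low. The summed share of the list was 0.213, 0.125 and 0.192% in TINYOE, against 0.0812, 0.123 and 0.0639% in WT. The count was 15 without WT replicate 2 and 13 without TINYOE replicate 2. Against tiny124, 19 of the genes were higher and 0 lower, where 5.12% of all genes were higher. The mutant line itself lay below WT in 5 of the list genes and above it in 0 (median log2 fold change of -0.69). The 19 thus do not measure a rise over WT.

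Other immune families held higher genes too, in smaller shares than the 44% of the salicylate list. Of 42 tested WRKY factors 12 rose and 0 fell (median 0.36, and 11 outside the chromosome 1 stretch, which holds WRKY40). WRKY40 lost its call without WT replicate 3 (adjusted p = 0.0596) or TINYOE replicate 3 (0.0511). WRKY70 had 413, 211 and 317 CPM in TINYOE, against 58.3, 141 and 92.6 CPM in WT (3.22-fold), and WRKY38 and WRKY15 rose 4.74-fold and 2.98-fold. Among intracellular immune receptors 5 rose and 1 fell of 14 (median 0.04), with ADR1 and ADR1-L1 1.71-fold and 1.98-fold higher, and 3 rose without WT replicate 3. The lower one was not called without WT replicate 1 or 3, any one TINYOE library or tiny124 replicate 1. Of 20 genes of pattern receptors and early signalling 5 rose (LYK5, SOBIR1, WAK2, MPK3 and MPK11) and 0 fell (median 0.42). MPK11, a MAP kinase, rose 4.86-fold. The count of higher genes was 9 without WT replicate 2, where 1 fell, and 1 without WT replicate 3 or TINYOE replicate 1. It was 3 without WT replicate 1, TINYOE replicate 2, TINYOE replicate 3 or tiny124 replicate 1. Of 27 cysteine-rich receptor kinases 5 rose and 0 fell (median 0.38), CRK19 2.18-fold and CRK7 2.37-fold. There were 3 higher without WT replicate 3, TINYOE replicate 1 or TINYOE replicate 2, and 2 without TINYOE replicate 3. Without WT replicate 2 or tiny124 replicate 3, 7 rose, and 1 fell without WT replicate 1 or 2. Of 13 calmodulin-like genes 4 rose and 0 fell (median 0.53), namely TCH3, CML37, CML38 and CML43. TCH3 had 774, 641 and 743 CPM in TINYOE, against 338, 406 and 376 CPM in WT. The count was 8 without WT replicate 2 and 7 without TINYOE replicate 1, and CML37 had a log2 fold change of 2.56, and 3.21 without WT replicate 2. CML43 lost its call without WT replicate 3 (adjusted p = 0.0585).

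The chosen touch and wound genes included higher calls alone, and the lists of jasmonate, the wound hormone, mostly lower calls. Genes that the annotation assigns to the response to wounding did not move one way, with 10 higher and 13 lower of 57 (median -0.10). In the touch and wound list 9 of 17 rose and 0 fell (52.9%, where 8.15% of all genes rose, median 1.12). SZF1, a zinc finger gene of early stress, had 150, 106 and 137 CPM in TINYOE, against 49.4, 59.7 and 58.8 CPM in WT, and ZAT7 rose 2.88-fold. Set against tiny124, 1 of these genes was higher and 1 lower, while 5 of them were higher in tiny124 than in WT (1.75% of all genes were). In jasmonate synthesis and turnover 7 fell and 1 rose of 15 (46.7% lower, where 7.44% of all genes fell, median -0.65). There were 3 lower without TINYOE replicate 1 and 2 higher without WT replicate 3. AOS, which commits lipid precursors to the pathway, had 78, 58.2 and 87.7 CPM in TINYOE, against 176, 224 and 239 CPM in WT, and AOC2 fell 1.96-fold. The lipoxygenase gene LOX4 rose 2.98-fold. Of 19 jasmonate repressors and outputs 9 fell and 0 rose (47.4% lower, median -0.85). Among those that fell were the repressor genes JAZ1 (log2 fold change of -0.85) and JAZ5 (-2.28, and -3.11 without TINYOE replicate 2). The regulator MYC4 (-0.98), ORA59 (-1.88) and CORI3 (-1.69) fell as well. Jacalin-related lectins, outputs of this branch, held 4 lower and 0 higher genes of 11 (MBP1, MBP2, JAL23 and JR1, median -0.91), and 8 lower without WT replicate 2, which was the lowest WT library in all 4. MBP1 had 6.09, 8.94 and 6.83 CPM in TINYOE, against 117, 28 and 61.8 CPM in WT (log2 fold change of -3.24, and -2.62 without WT replicate 1).

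Genes of aliphatic glucosinolate synthesis fell, while those of the indolic branch showed no common direction. Glucosinolates are sulfur-rich compounds made from methionine (aliphatic) or tryptophan (indolic) and cut by myrosinases on wounding. Of 21 aliphatic genes 18 fell and 0 rose (85.7%, where 7.44% of all genes fell, median -1.42). With any single library left out, 17 or 18 fell. The decrease ran along the pathway, by log2 fold changes of -2.79 in the regulator MYB29 and -1.19 in MYB28, of -1.33 in BCAT4 and -2.17 in IPMI1 of chain elongation, of -2.41 in CYP79F1 and -1.74 in CYP83A1 of core synthesis, and of -2.62 in FMO GS-OX1 of side-chain modification. MYB29 had 3.13, 3.68 and 2.39 CPM in TINYOE, against 21.1, 19.5 and 23.5 CPM in WT. Of 22 indolic and camalexin genes 2 rose and 2 fell (median -0.02), with 5 higher without WT replicate 2. MYB51, a regulator of this branch, had 34.7, 34.4 and 39.8 CPM in TINYOE, against 12.9, 12.1 and 13.6 CPM in WT, CYP81F2 rose 3.03-fold, and MYB34, another regulator, fell 4.6-fold. The fourth, UGT74B1, serves both branches, and its log2 fold change of -0.81 lost its call without WT replicate 1 (adjusted p = 0.114), WT replicate 3 (0.0623), TINYOE replicate 1 (0.115) or TINYOE replicate 2 (0.0629). The breakdown side held 6 lower and 0 higher genes of 14 (median -0.46). BGLU18, a glucosidase of ER bodies, had 47.7, 58.2 and 41.2 CPM in TINYOE, against 341, 208 and 357 CPM in WT, and the myrosinase gene TGG2 and the specifier gene ESP fell 2.37-fold and 3.79-fold.

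Flavonoid genes fell in the early and in the late steps of the pathway. Of 9 early and flavonol genes 3 fell and 0 rose (median -0.78). TT4, chalcone synthase, had 87.6, 101 and 110 CPM in TINYOE, against 259, 291 and 329 CPM in WT, and F3H and UGT78D1 fell 2.06-fold and 2.08-fold. Of 8 late anthocyanin genes and regulators 6 fell and 0 rose (median -2.96). GSTF12, which carries anthocyanins to the vacuole, had 0.823, 1.05 and 1.54 CPM in TINYOE, against 10.1, 6.56 and 9.17 CPM in WT, LDOX fell by 3.09 and AT5MAT by 3.01 on the log2 scale. The regulator PAP1 (AT1G56650) had 0.165, 0 and 0.513 CPM in TINYOE, against 3.61, 2.12 and 2.93 CPM in WT, and its log2 fold change of -3.55 was -4.77 without TINYOE replicate 3. Of 16 tau-class glutathione transferases 3 fell and 0 rose (median -0.28, and 5 lower without WT replicate 2). GSTU20 had 196, 179 and 104 CPM in TINYOE, against 726, 560 and 705 CPM in WT, and ERD9 fell 2.37-fold.

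**Figure D5:**
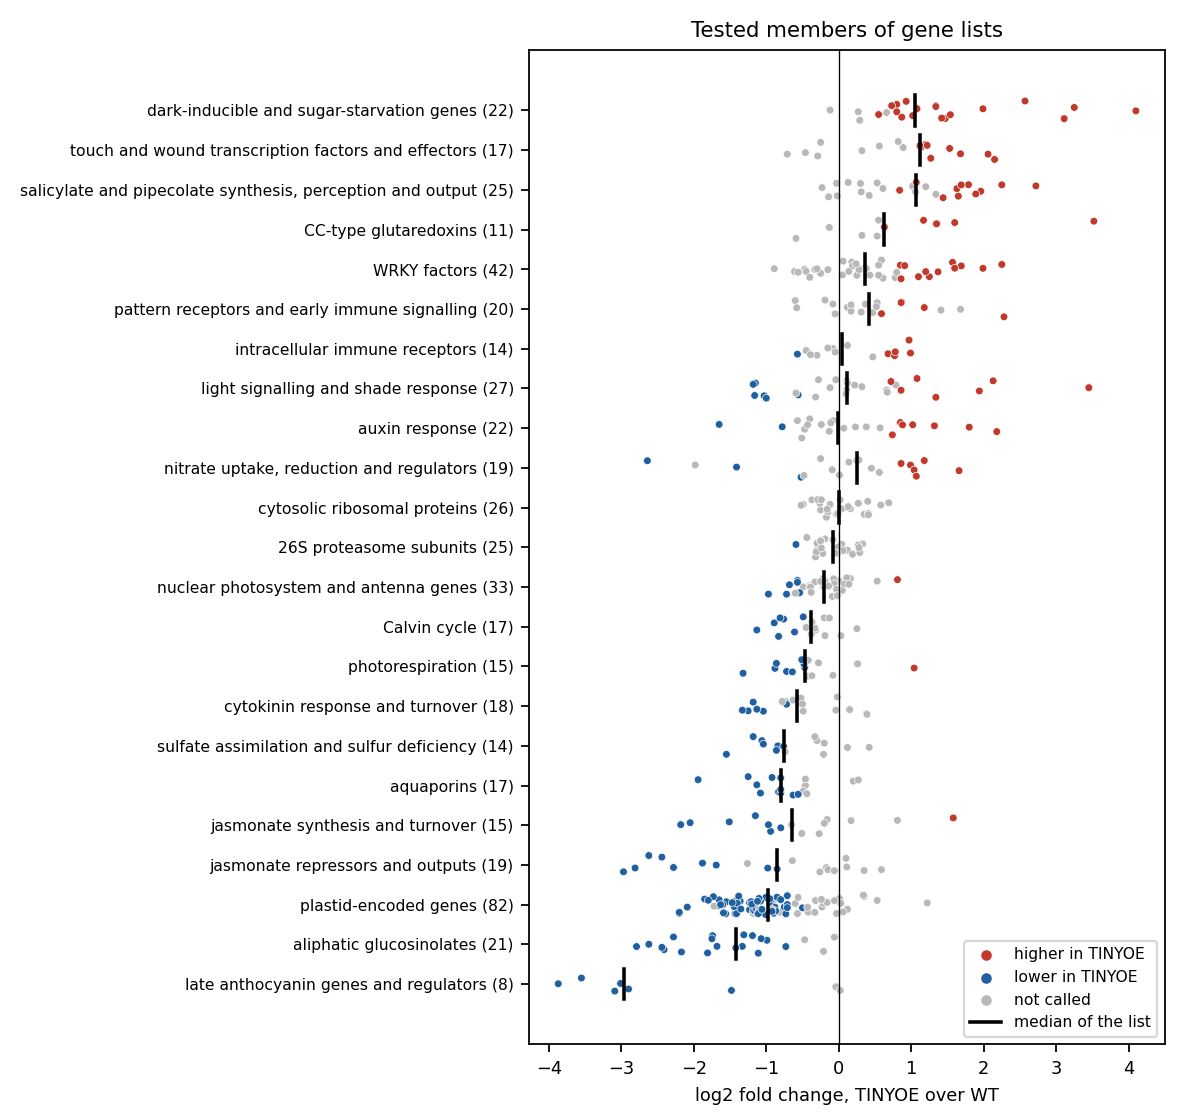
Each point is a tested gene of a list, placed by its log2 fold change of TINYOE over WT, with red for higher, blue for lower and grey for not called, and a black bar at the median of the list. The number of tested genes stands in brackets. Medians run from 1.12 for touch and wound genes and 1.05 for dark-inducible genes down to -2.96 for late anthocyanin genes, with the ribosomal and proteasome lists near 0.

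The machinery of protein synthesis and turnover did not move as a group. Of 26 cytosolic ribosomal protein genes 0 were called in either direction by edgeR (median 0.00), 6 had an unadjusted p under 0.05, of which 3 were above 0 and 3 below, and DESeq2 called 1 higher and 1 lower. Without WT replicate 2 edgeR called 3 higher and 3 lower ribosomal genes, 5 higher autophagy genes and 3 higher folding genes, and the last count was also 3 without TINYOE replicate 2. Of 14 ribosome assembly genes both tools called 0 (median -0.12, 1 with an unadjusted p under 0.05). Of 25 proteasome subunits 1 fell (RPT2a, log2 fold change of -0.59), of 16 genes of endoplasmic reticulum folding 1 rose (CRT3, 1.7-fold) and of 14 autophagy genes 1 rose (ATG8E, 0.94). RPT2a lost its call without any single library but WT replicate 2 and tiny124 replicate 3, and ATG8E without WT replicate 3 (adjusted p = 0.0692), TINYOE replicate 1 (0.0585) or TINYOE replicate 2 (0.054). Heat shock genes gave 3 higher and 2 lower of 17 (median -0.42), with 1 lower without any one TINYOE or tiny124 library or WT replicate 3. The factor genes HSFB2A, HSFA7A and AT-HSFB2B rose 3.85-fold, 3.87-fold and 2.5-fold, and the HSP70 gene AT3G09440 fell 2.38-fold. Mitochondrial stress genes gave 2 higher and 2 lower of 11 (median 0.17), with NDA1 1.75-fold lower. The higher count was 4 without WT replicate 2, 0 without TINYOE replicate 3 and 1 without TINYOE replicate 1 or either of WT replicates 1 and 3, and the lower count was 1 without TINYOE replicate 3. Cell division genes gave 1 higher and 0 lower of 20 (CDC20.1, log2 fold change of 1.36). CDC20.1 lost its call without any one WT library, TINYOE replicate 1 or 2, or tiny124 replicate 1, with adjusted p-values up to 0.146. Of 28 numbered ERF and DREB factors 4 rose and 2 fell (median 0.33, 2 higher without TINYOE replicate 2 and 4 lower without WT replicate 1, but 1 lower without WT replicate 3, TINYOE replicate 2 or tiny124 replicate 2). ERF6, a stress-induced factor, rose 2.41-fold, and RAP2.7, a repressor of flowering, fell 2.43-fold.

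Markers of age and of other organs were read for the make-up of the samples. Of 16 senescence genes 4 rose and 1 fell (median 0.39, 2 lower without TINYOE replicate 3). SAG21, an early stress gene, and BCB, a blue copper protein, rose 2.99-fold and 3.73-fold. SAG12, a protease of late senescence, had 0, 0.175 and 0.513 CPM in TINYOE, against 12.5, 4.24 and 2.02 CPM in WT, and its log2 fold change of -4.66 was -3.63 without WT replicate 1 and -5.87 without TINYOE replicate 3. Flower markers held 2 higher genes of 6 tested and 10 listed (SEP2 and PI, median 0.99), or 4 without WT replicate 1 or TINYOE replicate 1 and 1 without any other single TINYOE or WT library, and their summed share lay between 0.00367 and 0.00771% in TINYOE and between 0.00205 and 0.00342% in WT. SEP2 had 8.07, 13.5 and 12.1 CPM in TINYOE, against 2.85, 4.45 and 3.48 CPM in WT, while PI and AP3, which define petals and stamens, overlapped between the groups, and PI lost its call without WT replicate 2 (adjusted p = 0.0513), WT replicate 3 (0.114), TINYOE replicate 2 (0.155) or TINYOE replicate 3 (0.0783). The part of such tissue in the other results was not tested. Of the root markers 3 of 8 were tested, edgeR and DESeq2 called 0 and none had an unadjusted p under 0.05, and the root hair gene RHD6 had 0 counts in all 6 libraries. Of 6 guard cell markers both tools called 0 (2 with an unadjusted p under 0.05, both below 0), and vascular markers 1 lower of 6 (SEOR1, a sieve element protein, adjusted p = 0.0501 without WT replicate 3). SUC2, the sugar carrier of phloem companion cells, had 161, 138 and 179 CPM in TINYOE, against 100, 180 and 116 CPM in WT, and overlapped.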

How the data were processed

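Per the labels' protocols, about 500 ng of RNA per sample went into 3' tag libraries that were read as single 50 nt reads. Per the submitters' processing notes, the authors used the Lexogen QuantSeq FWD pipeline (version 2.2.2) with the TAIR10 genome build, and DESeq2 with no version given. The deposited values used here are raw counts per gene, as the file header names them, and the deposited fold changes and p-values were not used.

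All 9 libraries were fitted together in edgeR 4.0.16 (R 4.3.3, limma 3.58.1) with filterByExpr, TMM scaling and the quasi-likelihood test, and the TINYOE minus WT contrast was called at a Benjamini-Hochberg adjusted p under 0.05 over 16434 genes. All adjusted p-values are from this model unless DESeq2 (1.42.0) is named. The filter dropped 0.296% of counts. The common biological coefficient of variation was 0.18, with 6 residual degrees of freedom. The code was tested on simulated data with known fold changes.

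Named genes are the TINY family, the largest fold changes and CPM differences, up to 3 called members per direction of each list, and the largest changes of the chromosome 1 stretch. The largest fold changes and CPM differences were taken only among called genes whose TINYOE and WT libraries did not overlap. Other list members were named after their values were seen. The members and lists were chosen with earlier results of these data known, so they support nothing independently, and the list of expression references was added last. Annotation came from RefSeq TAIR10.1, for names and gene order only, because the builds differ. Promoter sequences were not used here. One item is not reported here.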

Additional observations from a re-analysis of the deposited data

How the results depend on the processing

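No gene called in TINYOE against WT was called in the opposite direction under any of the 16 alternatives, which were DESeq2, its size factors, no filter on low counts, at least 5 CPM in 3 libraries, the 6 TINYOE and WT libraries alone, the replicate block, removal of AT1G78410 to AT1G80970, and each library left out. Leaving out single libraries gave between 868 and 2141 higher and between 712 and 1891 lower genes, and between 652 and 1272 genes at least 2-fold higher in TINYOE than in WT. For genes at least 2-fold lower in TINYOE than in WT the range was 410 to 832. The upper ends were all reached without WT replicate 2, and 1264 of the 1339 higher and 1167 of the 1222 lower genes were among them. Pairing by replicate number was not seen between TINYOE and WT. Libraries of one number had correlations of -0.307, -0.217 and -0.217 in their deviations from the group means, and none correlated best with its own number. Of the tiny124 libraries only replicate 2 correlated best with the WT library of its number (0.36). Deviations from a mean of 3 libraries depend on each other, so these values cannot exclude pairing. With the replicate block 1158 genes were higher and 984 lower. DESeq2 called 1272 and 1208, of which 1217 and 1131 were shared, and without a filter 1828 were higher and 1533 lower. Of 200 called genes that the naming rule chose, 155 kept the call under all alternatives. Why the others lost it was not tested. At 4917868 counts or more per library, genes under about 1 CPM rest on few counts.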

Other observations

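The RefSeq annotation assigns a biological process to 7476 of the tested genes, and terms with at least 30 tested genes were surveyed without a test. Over all tested genes 8.15% rose and 7.44% fell. Of 38 genes in the response to chitin, a fungal wall polymer, 14 rose and 3 fell in TINYOE (36.8 and 7.89%, median log2 fold change of 0.55). Of 64 genes of the innate immune response 13 rose and 1 fell (20.3 and 1.56%). Of 82 genes annotated to apoptosis 17 rose and 2 fell (20.7 and 2.44%). The defense response to bacterium held 7 higher and 15 lower genes of 82 (8.54 and 18.3%), so only its lower share stood apart from that of all genes. The defense response held 32 higher and 21 lower of 198 (16.2 and 10.6%). Genes of the response to light stimulus were also more often lower, with 6 higher and 19 lower of 77 (7.79 and 24.7%). The response to cold held 6 higher and 18 lower of 118 (5.08 and 15.3%). Translation held 5 higher and 16 lower genes of 351 (1.42 and 4.56%, both under the shares of all genes), with 3 higher of 346 outside AT1G78410 to AT1G80970.

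By location, 96 genes annotated to the chloroplast rose and 234 fell of 2143 (4.48 and 10.9%, where 8.15 and 7.44% of all genes did). In the stroma 7 rose and 41 fell of 287 (2.44 and 14.3%). Outside AT1G78410 to AT1G80970, 77 of 2113 chloroplast genes and 2 of 280 stromal genes rose. By protein family, 23 RING/U-box proteins rose and 2 fell of 152 (15.1 and 1.32%). Of 40 SAUR-like proteins, small auxin-induced proteins with near-identical copies, 13 rose and 2 fell (32.5 and 5%). NPH3 family proteins, which act in phototropism, held 1 higher and 6 lower genes of 21 (4.76 and 28.6%). The pentatricopeptide repeat superfamily held 4 higher and 3 lower genes of 87 (4.6 and 3.45%, both under the shares of all genes). Outside that stretch it held 1 higher and 3 lower of 83.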
